A study of Homo sapiens with 4 samples.

Results

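The 6 genes described here, SCG5, NDP, HHIP, TCN1, PLA2G4A and AADACP1, were chosen by their measured values: in each, the brightest probe set differed by less than -0.8 on the log2 scale (knockdown minus control) in both a stable and a transient knockdown of ZEB2. They are 6 of the 15082 genes kept by a filter on dim genes, and all 6 passed that filter. They carry 9 of the 41097 probe sets that name a single gene, namely 4 for HHIP and 1 for each of the other 5. SCG5, NDP, HHIP and TCN1 encode proteins that are secreted or act outside the cell. PLA2G4A encodes a cytosolic enzyme and AADACP1 is annotated by RefSeq as a transcribed pseudogene, so the 6 are not all genes of secreted factors. The arrays measured RNA only, and secretion was not analysed here.

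All RNA came from cultures of MDA-MB-231, a mesenchymal-like cell line from a human breast carcinoma that lacks hormone receptors, read on 4 Affymetrix U133 Plus 2 arrays. The stable knockdown, made with shRNA, was a culture stably transduced with a short hairpin RNA against ZEB2, and the vector control carried pLVTH. The transient knockdown, made with siRNA, was given a pool of small interfering RNAs against ZEB2 at 20 nM, and the luciferase control was given siRNA against luciferase at the same dose. The transfected cultures were washed after 24 hours and harvested 48 hours later, and the amount of RNA labelled was 2 microg for the stable knockdown and its vector control (the stable pair) and 100 ng for the transient knockdown and its luciferase control (the transient pair). With 1 array in each of the 4 groups, no value below has a replicate error, and the precision of a difference within a pair is not known. The labels do not say whether a transduced line was a clone or how many hairpins were used. Values are log2 units, in which a difference of 1 is 2-fold.

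ZEB2 is a zinc-finger transcription factor that mostly represses its targets and is known for driving the loss of epithelial traits. It binds E-box sequences with a CACCT core. The secreted genes among the 6 act in separate systems. SCG5 encodes 7B2, a granule protein that acts as a chaperone of the prohormone convertase PC2. NDP encodes norrin, a ligand of the frizzled receptor FZD4 that signals through beta-catenin. HHIP encodes a cell-surface and secreted protein that binds hedgehog ligands and keeps them from their receptor. TCN1 encodes haptocorrin, a carrier of cobalamin, or vitamin B12, found in secretions. PLA2G4A encodes cytosolic phospholipase A2 alpha, which frees arachidonic acid from membranes for eicosanoid synthesis.

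Because the genes were chosen for being low after loss of a CACCT-binding factor, the stretch before their start sites is shown. RefSeq promoters of build GRCh38.p14 matched 4 of the 6 genes by symbol. The 250 bases before each start were searched on both strands for CACCT, which reads AGGTG on the other strand, and for the longer motif CACCTG, which contains it and reads CAGGTG there. The 150 bases next to the start are printed 5′ to 3′ on the strand of the gene, with the motif in capitals: SCG5 lies at chr15:32641560-32641709 (plus strand), HHIP at chr4:144646006-144646155 (plus strand), TCN1 at chr11:59866488-59866637 (minus strand) and PLA2G4A at chr1:186828799-186828948 (plus strand).
SCG5: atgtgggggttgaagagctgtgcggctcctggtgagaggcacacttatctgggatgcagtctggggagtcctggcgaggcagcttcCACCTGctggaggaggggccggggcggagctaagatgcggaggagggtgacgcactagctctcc
HHIP: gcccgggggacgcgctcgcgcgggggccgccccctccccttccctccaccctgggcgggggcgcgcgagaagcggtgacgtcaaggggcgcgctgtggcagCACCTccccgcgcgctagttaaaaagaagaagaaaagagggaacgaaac
TCN1: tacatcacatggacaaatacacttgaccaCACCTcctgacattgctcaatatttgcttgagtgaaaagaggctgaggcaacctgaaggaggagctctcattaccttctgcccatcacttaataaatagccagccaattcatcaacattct
PLA2G4A: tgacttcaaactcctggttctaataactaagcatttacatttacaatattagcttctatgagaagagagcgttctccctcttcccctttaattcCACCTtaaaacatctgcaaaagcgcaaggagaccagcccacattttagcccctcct

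All 4 stretches held CACCT on the strand of the gene. Its first base lay 64 bases before the start in SCG5, 49 in HHIP, 121 in TCN1 and 56 in PLA2G4A. SCG5 alone of the 4 held the longer CACCTG, and it had a second CACCT on the other strand, 230 bases before the start and outside the printed stretch. Among 35116 RefSeq promoters searched over the same 250 bases, 45.4% held CACCT and 17.5% held CACCTG on either strand. The motif is thus common, and a match is a description of the letters, not of binding.

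ZEB2 itself was low on both knockdown arrays. Its brightest probe set read 3.52 in the stable knockdown against 6.12 in the vector control, and 3.51 in the transient knockdown against 6.56 in the luciferase control. The markers fixed for the line gave a mixed picture. VIM, CD44, KRT8 and KRT18 were bright on every array, between 10.7 and 14.1. Of 7 markers named as dim in this line, PGR and FOXA1 lay below the filter level of 4.77 throughout. GATA3 (8.18 to 9.48), ERBB2 (7.83 to 7.97), ESR1 (6.08 to 6.54) and CDH2 (5.29 to 5.80) lay above it on every array. CDH1, the epithelial adhesion gene and the last of the 7, read 4.26 and 3.54 on the stable knockdown and control arrays but 8.35 and 7.37 on the transient knockdown and control arrays. Of 9 markers of leukocytes, endothelium and fibroblasts, 3 lay under the filter level on all arrays, PTPRC among them. CD3E, CD79A, CD14, PECAM1 and DCN lay above it on every array. Each marker was read in its brightest probe set, which for ESR1, DCN, KRT8 and KRT18 was of a kind that may cross-hybridise. The filter level lies under the array medians of 5.34 to 5.37, so a value above it does not by itself show expression. CD14 read 7.30 in the luciferase control against 5.21 in the vector control. The log2 of the summed level of the 9 markers was 8.65 and 8.45 on the stable knockdown and control arrays. It was 9.75 and 9.92 on the transient knockdown and control arrays. The fibroblast gene LUM stood out, at 6.80 in the stable knockdown, 2.92 in the vector control, 8.71 in the transient knockdown and 8.99 in the luciferase control. The luciferase control was higher than the vector control by 2-fold or more in 10.8% of genes and lower by as much in 4.99%. The method, the culture and the amount of RNA labelled differ together between the pairs and cannot be told apart, and their part in the results below was not tested. In such bulk samples, fewer cells of a kind and less RNA per cell cannot be told apart either.

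SCG5 had the largest difference of the 6 in the transient pair. It read 8.12 in the stable knockdown against 9.97 in the vector control, a difference of -1.85 or 3.60-fold lower. In the transient knockdown it read 7.12 against 9.31 in the luciferase control, a difference of -2.19 or 4.57-fold lower. Both knockdown arrays lay below both control arrays, and none of the 4 values came near the filter level. Among the 15082 genes SCG5 had the second lowest difference of the transient pair, after ZEB2, and rank 51 from the lowest in the stable pair. It was the only 1 of the 6 whose difference was larger in the transient pair than in the stable pair, by 0.34.

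NDP was lower in both knockdowns, more so in the stable one. It read 5.51 in the stable knockdown against 7.43 in the vector control (-1.92, 3.80-fold lower). In the transient knockdown it read 4.93 against 6.04 in the luciferase control (-1.11, 2.16-fold lower). Both knockdown arrays lay below both control arrays, the transient knockdown only just above the filter level. The luciferase control differed from the vector control by -1.39, a gap of 2.62-fold between cultures in which ZEB2 was not targeted. The luciferase control was therefore nearer to the stable knockdown than to the vector control.

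HHIP was lower in both knockdowns in all 4 of its probe sets, but only 1 of them passed -0.8 in the transient pair. The brightest read 6.14 in the stable knockdown against 7.46 in the vector control (-1.32), and 5.16 in the transient knockdown against 6.08 in the luciferase control (-0.92). The next brightest read 5.61 against 7.26 in the stable pair (-1.64) and 5.05 against 5.65 in the transient pair (-0.60), in each case the knockdown against its control. The third read 5.30 in the stable knockdown against 6.22 in its control (-0.92), and 4.01 in the transient knockdown against 4.50 in its control (-0.49). The dimmest read 4.94 in the stable knockdown against 6.27 in its control (-1.33), and 4.20 in the transient knockdown against 4.36 in its control (-0.16). The last pair of probe sets lay under the filter level on both transient-pair arrays.

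Over its 4 probe sets HHIP averaged -1.30 ± 0.30 (SD over probe sets) in the stable pair and -0.54 ± 0.31 in the transient pair. This spread is between probe sets on the same arrays and not between cultures. The luciferase control differed from the vector control by -1.37 to -1.91, depending on the probe set. In the brightest probe set the luciferase control, at 6.08, was slightly below the stable knockdown, at 6.14. The knockdown and control arrays thus overlapped in that probe set, as in 3 of the 4, while in the next brightest both knockdown arrays lay below both control arrays.

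TCN1 was the one gene of the 6 that was higher in the luciferase control than in the vector control. It read 5.46 in the stable knockdown against 6.69 in the vector control (-1.23, 2.34-fold lower). In the transient knockdown it read 6.87 against 7.85 in the luciferase control (-0.99, 1.99-fold lower). The luciferase control exceeded the vector control by 1.17, so the transient knockdown still read above the vector control and the groups overlapped. The gap between the controls was about as large as either difference with knockdown.

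PLA2G4A was lower in both knockdowns but lay near or under the filter level throughout. It read 3.47 in the stable knockdown against 5.04 in the vector control (-1.57), and 3.75 in the transient knockdown against 4.63 in the luciferase control (-0.88). Both knockdown arrays lay below both control arrays. It passed the filter on dim genes through the vector control alone, since the other 3 arrays were under 4.77, and its transient-pair difference lay wholly below that level.

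AADACP1, a pseudogene related to the arylacetamide deacetylase gene AADAC, had the lowest difference of all 15082 genes in the stable pair. It read 4.54 in the stable knockdown against 8.29 in the vector control (-3.74, 13.4-fold lower). In the transient knockdown it read 4.01 against 5.42 in the luciferase control (-1.41, 2.66-fold lower), the 6th lowest difference of that pair. Both knockdown arrays were under the filter level and below both control arrays. The 2 control arrays were themselves 7.29-fold apart, the luciferase control being the lower at -2.87.

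**Figure D1:**
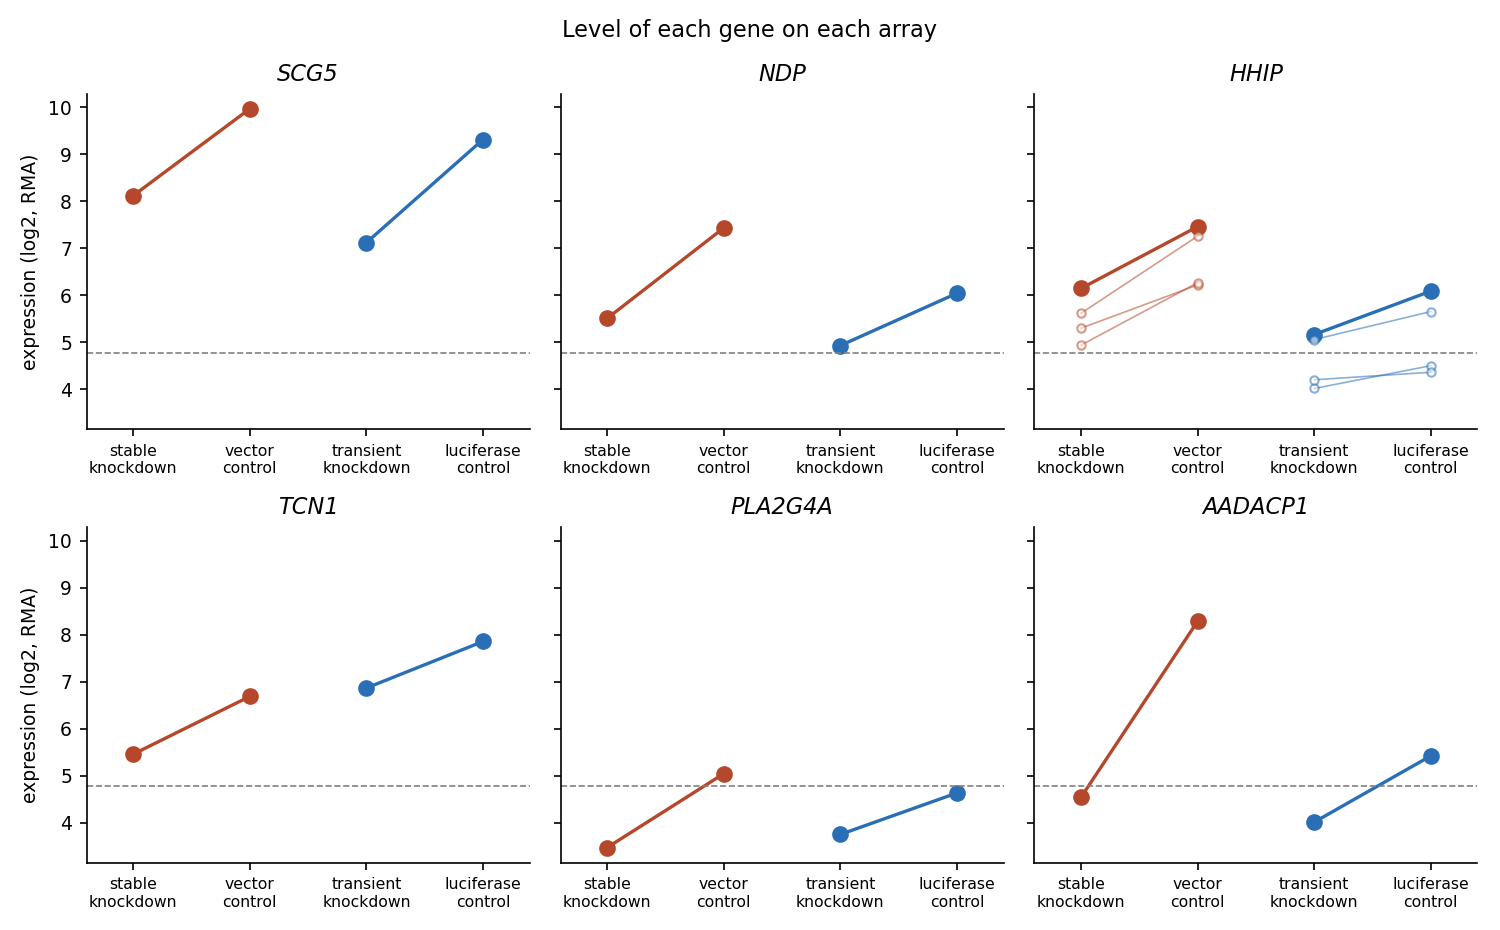
Expression of the 6 genes on the 4 arrays, in log2 RMA units on the vertical axis. Filled points joined by a thick line are the brightest probe set, small open points the other 3 HHIP probe sets, red is the stable pair, blue the transient pair, and the dashed line is the filter level of 4.77. Each line runs upward from knockdown to control, and the starting levels of the pairs differ, most in AADACP1, which read 8.29 in the vector control and 5.42 in the luciferase control.

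Taking the 6 genes side by side, all were at least 2-fold lower in the stable pair, where 2.08% of all genes were, and 3.58% were below -0.8. In the transient pair 3 of the 6, SCG5, NDP and AADACP1, were at least 2-fold lower, against 0.126% of all genes at 2-fold and 0.404% below -0.8. The rule chose the genes on these same differences, so the counts are only a description. The median difference of the 6 was -1.71 in the stable pair and -1.05 in the transient pair, and that of all genes was -0.024 and -0.018. Their range was wider in the stable pair, from -3.74 to -1.23, than in the transient pair, from -2.19 to -0.88. The standard deviation over all genes was also larger in the stable pair, at 0.50, than in the transient pair, at 0.23. In 5 of the 6 the difference was larger in the stable pair.

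The rule did not use the difference between the controls, although both control arrays enter the values that chose the genes. The luciferase control was lower than the vector control in 5 of the 6, by at least 2-fold in NDP, HHIP and AADACP1. In TCN1 it was higher by more than 2-fold. Of all genes, 4.99% were lower and 10.8% higher by 2-fold or more in the luciferase control. The median over the 6 was -1.01, while that over all genes was 0.056. SCG5 differed between the controls by -0.66 and PLA2G4A by -0.41. In 3 of the 6, NDP, HHIP and AADACP1, the luciferase control lay nearer to the stable knockdown than to the vector control. The share of all genes with this order was not counted, nor was that of genes lower by any amount in the luciferase control. The vector control enters both this order and the stable-pair difference that chose the genes, so the order is only a description. Across all arrays, 4 of the 6 had both knockdown arrays below both control arrays, TCN1 and HHIP being the exceptions. The same held for 8.85% of all genes, and for 12 of the 16 genes below -0.8 in both pairs, or 75%, the 6 included. Since the choice of genes used the same arrays, that count is only a description.

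**Figure D2:**
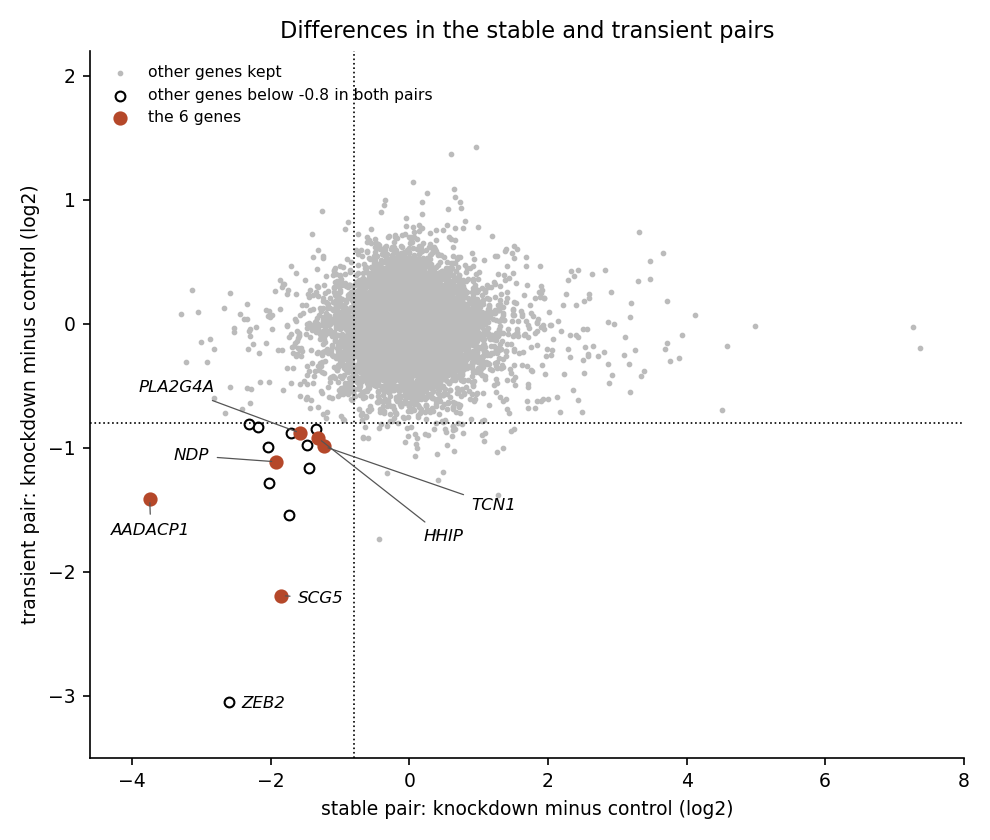
Knockdown minus control on the log2 scale in the stable pair (horizontal axis) and the transient pair (vertical axis) for the 15082 genes kept (grey), the 6 genes (red) and the other 10 genes below -0.8 in both pairs (open circles, ZEB2 named). Dotted lines mark -0.8. AADACP1 is far to the left at -3.74, SCG5 is the lowest of the 6 at -2.19, and HHIP, TCN1 and PLA2G4A lie near the line of the transient pair, between -0.99 and -0.88.

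The rule found 16 genes in all, 0.106% of those kept, and 7 of these, or 0.0464% of all genes, reached 2-fold in each pair. Besides the 6 and ZEB2 they were CCND2, COL6A3, IGFBP1, KRT15, ADCY10P1, RGS4, ANK3, TBC1D8B and TMC5. The 6 were therefore a choice among the genes passing the rule. The genes just inside the threshold were TMC5, at -2.31 in the stable pair and -0.81 in the transient pair, TBC1D8B at -2.18 and -0.84, and ANK3, which encodes the membrane scaffold ankyrin-G, at -1.34 and -0.85. Just outside were CFAP119 at -0.94 and -0.78, CFAP300 at -0.96 and -0.77, and PSMB8-AS1 at -1.19 and -0.76. PLA2G4A, at -0.88 in the transient pair, and HHIP, at -0.92, were the nearest of the 6 to the threshold.

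The profiles of the 6 over the 4 arrays were compared after centring each on its own mean. The nearest to each other were NDP and HHIP, at a root mean square distance of 0.25, and the farthest apart were TCN1 and AADACP1, at 1.74. TCN1 was at least 0.69 from each of the others. The likeness of other genes was measured in the same way, over the same 4 arrays, and the correlations are descriptions over 4 points that share their arrays.

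SCG5 was nearest to CCND2, a D-type cyclin, at a distance of 0.23 (r = 0.99), and to COL6A3, a chain of collagen VI, at 0.33 (r = 0.96). Only 5 genes lay within 0.5 of SCG5. CCND2 read 6.36 in the stable knockdown against 8.10 in its control, and 5.66 in the transient knockdown against 7.21 in its control. NDP was nearest to the basal keratin gene KRT15, at 0.057 (r = 0.998), and to COL6A3, at 0.11 (r = 0.99). KRT15 read 5.98 in the stable knockdown against 8.02 in its control, and 5.51 in the transient knockdown against 6.50 in its control. Within 0.5 of NDP lay 123 genes.

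HHIP was nearest to NLRC5, an activator of MHC class I genes, at 0.16, and to LRRC8B, a subunit of volume-regulated anion channels, at 0.17. TCN1 was nearest to CARD16, at 0.15, and to the lipase-related gene PNLIPRP3, at 0.22. CARD16 read 5.68 in the stable knockdown against 7.10 in its control and 7.33 in the transient knockdown against 7.94 in its control, thus with a higher luciferase control as in TCN1. PLA2G4A was nearest to the pseudogene ADCY10P1, at 0.17, and to the adhesion gene CLMP, at 0.18. AADACP1 was nearest to HLA-DRA, a chain of an MHC class II molecule, at 0.46, and to the phosphatase gene PTPN22, at 0.49. These were the only genes within 0.5 of AADACP1, whereas 867 lay within 0.5 of PLA2G4A and 602 of HHIP. HLA-DRA differed by -3.21 in the stable pair and by -0.31 in the transient pair, so its likeness to AADACP1 rests mostly on the high vector control.

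The neighbours of the 6 genes on their chromosomes were followed next. The nearest gene kept by the filter on each side was taken from the order of the RefSeq gene table, which gave 12 neighbours. In the stable pair 2 of them were at least 2-fold lower and 1 at least 2-fold higher, where 2.08% and 2.39% of all genes were. In the transient pair 0 were 2-fold lower and 0 higher, against 0.126% and 0.0464% of all genes, and 0 were below -0.8 in both pairs, against 0.106%. Their median difference was -0.27 in the stable pair and -0.015 in the transient pair.

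The neighbour with the largest difference was AADAC, which follows AADACP1 on chromosome 3 with 0 genes of the table between them. AADAC encodes an esterase of the endoplasmic reticulum. It read 4.91 in the stable knockdown against 7.58 in the vector control (-2.68), beside -3.74 in AADACP1. On the transient-pair arrays it read 4.73 in the knockdown against 4.61 in the control (0.12), under the filter level on both, while AADACP1 differed by -1.41. Both had a luciferase control far below the vector control, differing from it by -2.97 in AADAC and -2.87 in AADACP1. Whether the probe sets of the gene and the pseudogene read each other's transcripts was not tested.

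HHIP-AS1, the antisense gene that precedes HHIP on chromosome 4, read 7.41 in the stable knockdown against 8.18 in the vector control (-0.77). In the transient knockdown it read 7.37 against 7.42 in the luciferase control (-0.054). It was thus lower beside HHIP in the stable pair, while in the transient pair the antisense gene hardly differed. The family members HHIPL1 and HHIPL2 differed by -0.17 and 0.23 in the stable pair and by -0.072 and -0.11 in the transient pair, HHIPL2 under the filter level on every array.

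PTGS2, the inducible cyclooxygenase that acts on the arachidonic acid freed by PLA2G4A, is the nearest measured gene before PLA2G4A on chromosome 1. It read 4.79 in the stable knockdown against 4.52 in the vector control (0.27), and 7.57 in the transient knockdown against 8.27 in the luciferase control (-0.70). The gap between its controls, 3.75, was far larger than either difference. On the other side RGS2, with 43 genes of the table between them, differed by -1.27 and -0.34. MAOB, the monoamine oxidase gene next to NDP on the X chromosome, went the other way, being 1.01 higher in the stable knockdown and 0.42 higher in the transient knockdown. FUNDC1, on the other side of NDP with 7 genes of the table between them, was also higher. It differed by 0.14 in the stable pair and 0.22 in the transient pair. ARHGAP11A and FMN1, the nearest measured genes to SCG5 on chromosome 15, lay with 1 and 5 genes of the table between. They differed by -0.33 and -0.13 in the stable pair and by -0.21 and -0.0034 in the transient pair. MRPL16 and MS4A6A, the nearest measured genes to TCN1 on chromosome 11, lay with 1 and 10 genes between. They differed by -0.40 and -0.22 in the stable pair and by -0.026 and 0.44 in the transient pair. ANAPC10, after HHIP with 4 genes between, differed by -0.18 and -0.16. MED12L, before AADACP1 with 14 genes between, differed by -0.31 and 0.35.

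**Figure D3:**
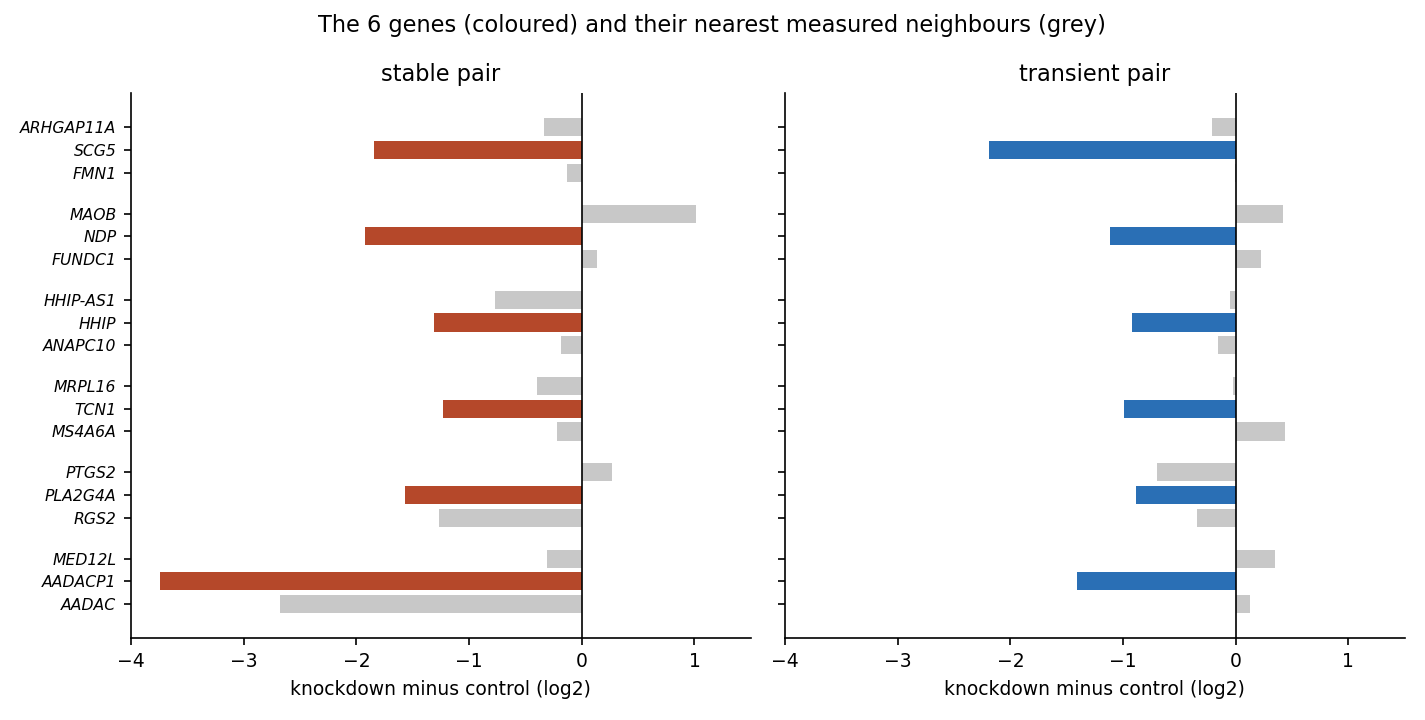
Knockdown minus control on the log2 scale in the stable pair (left) and the transient pair (right) for each of the 6 genes (coloured bars) and the nearest measured gene on either side (grey bars), in chromosome order. AADAC is the neighbour with the longest bar in the stable pair, at -2.68, and PTGS2 in the transient pair, at -0.70.

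Partners of the 6 genes in their pathways were followed in 6 lists holding 106 genes. Probe sets named 95 of them and 82 passed the filter, while 11 were not analysed here. None of the 82 was below -0.8 in both pairs. At 2-fold, 3 were higher and 5 lower in the stable pair, where 2.39% of all genes were higher and 2.08% lower. In the transient pair 0 were higher and 1 lower, against 0.0464% and 0.126% of all genes. Medians over the 82 were 0.017 in the stable pair and -0.018 in the transient pair, beside -0.024 and -0.018 over all genes. Counts of higher and lower genes in the lists below are by sign alone, whatever the size. The share of all genes on either side of 0 was not counted, so those counts are only a description. The effect common to both knockdowns was fitted with limma, with the method as a block over the 4 arrays. It called 0 of the 82 genes after Benjamini-Hochberg adjustment over all genes, with 5 at an unadjusted p under 0.05, and 0% of all genes, with 384 at that unadjusted level. The smallest adjusted p of limma was 0.971. The targeted gene ZEB2 was thus not called either, so the absence of calls does not show that the pathway genes were unchanged. That fit takes its error from how far the stable-pair and transient-pair differences of a gene disagree. This leaves 1 residual degree of freedom, moderated over all genes. The 6 genes get no p from the fit because the same differences chose them.

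Around SCG5, PCSK1N was the only measured granule and prohormone processing gene at 2-fold in either pair. PCSK2, the gene of the convertase PC2, and PCSK1 were among the list genes not analysed here. In the stable pair 2 of the 8 genes measured were higher and 6 lower (median -0.33), while in the transient pair 5 were higher and 3 lower (median 0.065). PCSK1N, which encodes an inhibitor of the convertase PC1, read 6.65 in the stable knockdown against 5.35 in its control (1.30), and 6.54 in the transient knockdown against 6.43 in its control (0.11). The granule protein genes CHGA, CHGB and SCG3 lay under the filter level on every array. Others of the list lay above it on every array: SCG2 (4.97 to 6.37), VGF (5.61 to 6.14), CPE (7.51 to 8.51) and PAM (10.98 to 12.00).

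Around NDP, the norrin receptor and Wnt list had 20 genes measured, with medians of 0.025 in the stable pair and 0.016 in the transient pair. In the stable pair 2 were at least 2-fold lower. LEF1, a nuclear partner of beta-catenin, read 7.22 in the stable knockdown against 9.05 in its control (-1.82), and 5.23 in the transient knockdown against 5.76 in its control (-0.54). LRP5, the co-receptor of norrin, read 6.72 in the stable knockdown against 7.72 in its control (-1.002), and 6.10 in the transient knockdown against 5.94 in its control (0.16).

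Around HHIP, 14 hedgehog genes were measured, 8 of them lower and 6 higher in each pair, with medians of -0.10 and -0.045. DISP1, which releases lipid-bearing hedgehog ligands from the cells that make them, was the only 1 at 2-fold. It read 5.91 in the stable knockdown against 7.15 in its control (-1.24), and 5.51 in the transient knockdown against 5.91 in its control (-0.40).

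Around TCN1, 13 genes of cobalamin uptake and use had medians of 0.050 in the stable pair and -0.072 in the transient pair, with 10 of the 13 lower in the transient pair. LMBRD1, a lysosomal cobalamin exporter, was the only 1 at 2-fold, at 9.19 in the stable knockdown against 8.07 in its control (1.12). It read 10.26 in the transient knockdown against 10.34 in its control (-0.085).

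Around PLA2G4A, 23 phospholipase and eicosanoid genes had medians of 0.13 in the stable pair and -0.058 in the transient pair. AKR1C3, a reductase of prostaglandins and steroids, read 9.97 in the stable knockdown against 7.63 in its control (2.34), and 11.59 in the transient knockdown against 11.17 in its control (0.43). ALOX5AP, which hands arachidonic acid to the enzyme that makes leukotrienes, read 5.14 in the stable knockdown against 5.03 in its control (0.11). It read 5.16 in the transient knockdown against 6.17 in its control (-1.003).

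Around AADACP1, 4 genes of the deacetylase and carboxylesterase list were measured, with medians of -0.48 in the stable pair and 0.12 in the transient pair. Of these AADAC, described above, and NCEH1, a cholesteryl ester hydrolase, were at least 2-fold lower in the stable pair. NCEH1 read 10.30 in the stable knockdown against 11.36 in its control (-1.06), and 10.83 in the transient knockdown against 10.43 in its control (0.40).

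**Figure D4:**
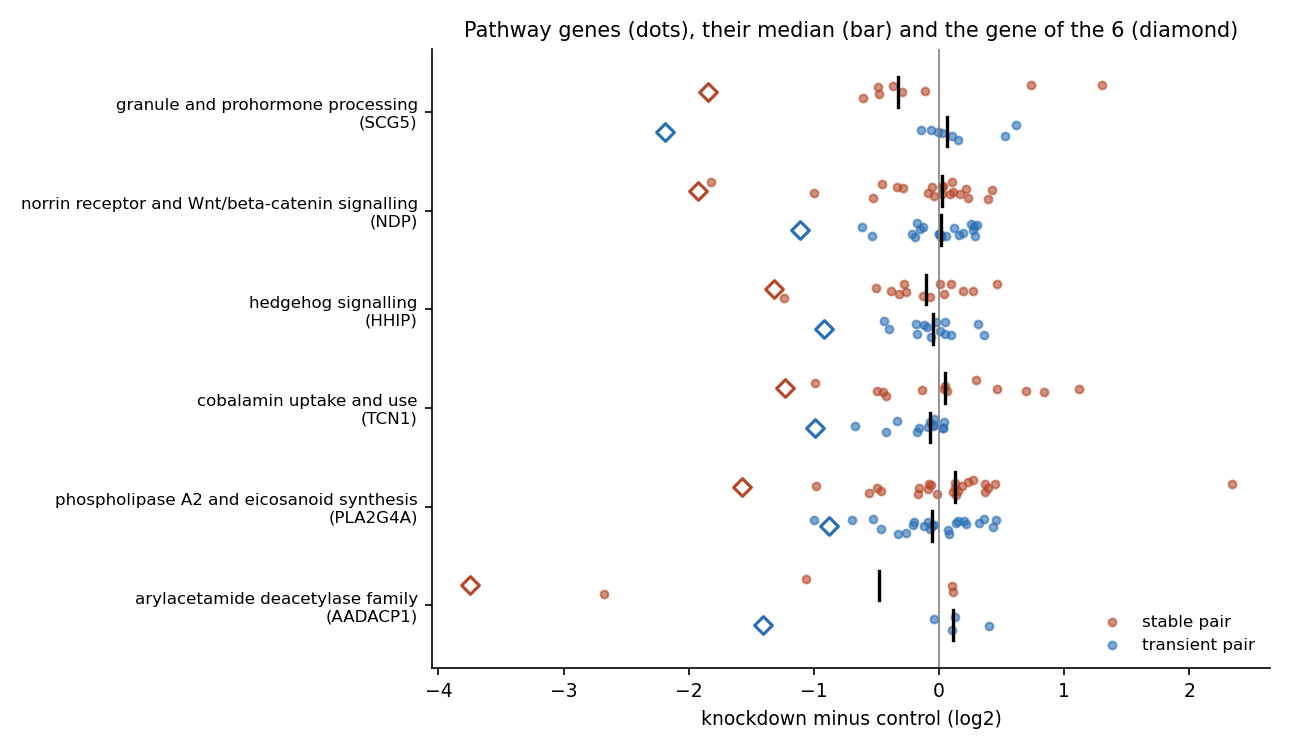
Knockdown minus control on the log2 scale for the 82 pathway genes measured (dots), by list, in the stable pair (red) and the transient pair (blue). Black bars are list medians and diamonds the gene of the 6 that each list surrounds. Every diamond lies below its list's median, as the choice of the 6 requires, and the medians lie between -0.48 and 0.13.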

How the data were processed

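The deposited file holds log2 values by probe set. They came from RMA in the affy package, run by the authors per the submitters' processing notes, and their versions are not given in the sources used here. The method corrects background, gives the arrays a common distribution and summarises probes, which compresses differences of dim genes. Array medians lay between 5.34 and 5.37, and 0 pairs of arrays held identical values.

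Of 54675 probe sets, 41097 had 1 gene symbol in the annotation of the platform, 1801 several and 11777 none in the table used here. For 41043 the gene identifier was found in the GRCh38.p14 table of RefSeq, which gave names and gene order. The probe set with the highest mean stood for each of 19775 genes. Genes whose highest value was under the 40th percentile of all values, 4.77, were left out, leaving 15082.

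Differences are knockdown minus control in log2 units. A single array per group allows no test within a pair. Pathway genes were read from limma 3.58.1 in R 4.3.3 (lmFit, eBayes with trend, 2-sided, method as a block, Benjamini-Hochberg adjustment over all genes at 0.05). The code was run on simulated data with the noise of the transient pair on every array and the same effect in both methods. The stable pair had a wider spread, so that run does not show how the fit performs on these arrays. The members, the gene lists and the tests were chosen with earlier results of these data known.

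Named genes were the 6 with all their probe sets, ZEB2, the 3 genes on each side of the threshold, the 2 nearest profiles of each of the 6, the nearest measured neighbours, and from each list up to 4 genes at 2-fold in either pair, or otherwise the 2 with the largest mean difference. HHIPL1, HHIPL2, the granule genes given by level alone and the other genes passing the rule were added after their values were seen. So was the criterion for the genes set apart in the closing section, namely 2-fold in 1 pair with the opposite sign in the other: a stricter one first tried, opposite signs at 1.5-fold in both pairs, picked 0 genes. Alternatives were averaged probe sets, leaving out cross-hybridising probe sets, no filter or a filter at the 60th percentile, 3 other scalings, folds of 1.5 and 3, and for limma no method block and no trend. Plots used matplotlib 3.10.9 under Python 3.11.15.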

Additional observations from a re-analysis of the deposited data

Results flagged for a closer look

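Some pathway genes named above were 2-fold apart from their control in 1 pair and on the other side of 0 in the other pair. None of these gaps between the methods was tested, and the share of all genes meeting the criterion was not counted. Except in NCEH1, the value on the other side of 0 was smaller than the standard deviation over all genes in that pair. That deviation was 0.50 in the stable pair and 0.23 in the transient pair, so such values are close to no difference. AADAC, the gene beside AADACP1, differed by -2.68 in the stable pair and by 0.12 in the transient pair, where both arrays read under the filter level. NCEH1, of the same esterase list, differed by -1.06 and 0.40 in the same order. LRP5, the co-receptor of norrin, differed by -1.002 in the stable pair and by 0.16 in the transient pair. LMBRD1, the lysosomal cobalamin exporter, differed by 1.12 in the stable pair and by -0.085 in the transient pair. ALOX5AP, of the eicosanoid list, differed by 0.11 in the stable pair and by -1.003 in the transient pair.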

How the results depend on the processing

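When the probe sets of a gene were averaged, the genes at least 2-fold lower numbered 202 in the stable pair, against 313 with the brightest probe set, and 10 in the transient pair, against 19, and 8 genes passed -0.8 in both, against 16. HHIP was then at -0.54 in the transient pair and no longer passed the rule, while the other 5, with 1 probe set each, could not change. Lower genes numbered 1073 in the stable pair and 228 in the transient pair at 1.5-fold, and 85 and 4 at 3-fold. A filter at the 60th percentile removed PLA2G4A, which left 5 of the 6 among 15 genes. Median centring, quantile normalization and cyclic loess moved the 12 differences of the 6 genes by at most 0.082 and kept all of them below -0.8. Under each of the 9 alternatives limma called 0 pathway genes, with 1 to 6 at an unadjusted p under 0.05. It also called 0 of all genes under each, ZEB2 included. The repeated 0 therefore does not show that the pathway genes were unchanged. Leaving out an array leaves its pair with no comparison, so no such setting was run. The limma fit pairs the arrays by method, and without that method block it called 0 pathway genes, with 1 at an unadjusted p under 0.05. The filter level of 4.77 limits PLA2G4A, AADACP1 and the dimmer HHIP probe sets, which read under it on 2 or more arrays.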
